A study of Mus musculus with 15 samples.

Results

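The genes described here are 49 interferon-stimulated genes of the mouse, a list of genes that cells switch on when interferon reaches them, chosen by name from the 36528 gene identifiers of each sample. They were followed in microglia, the resident macrophages of the brain, sorted from the cortex by green fluorescent protein that marks cells using Cx3cr1, the fractalkine receptor gene of microglia. The PS2APP group (n = 9) carries transgenes for human mutant presenilin 2 and amyloid precursor protein and models the amyloid pathology of Alzheimer's disease. It had 5 samples at 15 months of age and 4 at 14 months. The non-Tg group (n = 6), with no transgene, had 4 samples at 15 months and 2 at 14 months. All 15 samples carried the Cx3cr1::GFP reporter that the sort used. The sources used here do not give the promoters of the transgenes, the strain or whether mice were pooled. Nothing in the labels ties a sample to a mouse of its own, so p-values speak of the spread between samples, which may be technical in part.

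Type I interferons bind a receptor made of Ifnar1 and Ifnar2, which activates the kinases Jak1 and Tyk2. These phosphorylate Stat2, which joins Irf9 in a complex that binds the interferon-stimulated response element (ISRE) in the promoters of its target genes. The targets include sensors of foreign nucleic acid, proteins that block viral entry, translation or genome copying, and Irf7 and Usp18, which feed back on the pathway. Type II interferon acts mainly through another promoter element, the gamma-activated site (GAS), with the guanylate-binding proteins (Gbp) among its well known targets.

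The promoters of the list showed that element often. RefSeq windows from 250 bases before to 50 bases after the transcription start (build GRCm38.p6) were at hand for 39 of the 49 genes. The ISRE core GAAANNGAAA, searched on both strands, occurred in 23 of these 39 (59.0%), against 1079 of the 27025 genes with such a window (3.99%). The GAS core TTCNNNGAA, which reads the same on both strands, occurred in 8 of 39 (20.5%), against 9.55% of all genes. A match of letters is not evidence of binding, and these windows say nothing of more distant elements. Stretches of 80 bases are shown for 3 genes that rose in PS2APP microglia (Oas3, Slfn5, Trim30a), for a pair of neighbouring copies (Ifit3, Ifit3b), for Rsad2, which narrowly missed the threshold, and for a pair with fold changes near 0 (Gbp7, Phf11b), so that the letters can be set beside the values. Each reads 5′ to 3′ on the strand of its gene, and capitals mark the ISRE core or its reverse complement. They lie at chr5:120777690-120777769 (minus strand) for Oas3, chr11:82951912-82951991 (plus) for Slfn5, chr7:104465194-104465273 (minus) for Trim30a and chr19:34583355-34583434 (plus) for Ifit3. Those of Ifit3b, Rsad2, Gbp7 and Phf11b lie at chr19:34607751-34607830 (plus), chr12:26456528-26456607 (minus), chr3:142530248-142530327 (plus) and chr14:59341336-59341415 (minus).
Oas3: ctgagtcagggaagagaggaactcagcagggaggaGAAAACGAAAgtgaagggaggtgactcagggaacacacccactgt
Slfn5: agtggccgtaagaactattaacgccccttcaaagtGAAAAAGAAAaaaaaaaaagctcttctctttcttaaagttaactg
Trim30a: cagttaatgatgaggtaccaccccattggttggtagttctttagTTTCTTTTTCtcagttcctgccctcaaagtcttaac
Ifit3: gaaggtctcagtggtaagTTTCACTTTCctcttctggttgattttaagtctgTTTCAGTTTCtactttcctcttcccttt
Ifit3b: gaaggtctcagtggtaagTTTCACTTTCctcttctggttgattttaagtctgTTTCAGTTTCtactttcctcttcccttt
Rsad2: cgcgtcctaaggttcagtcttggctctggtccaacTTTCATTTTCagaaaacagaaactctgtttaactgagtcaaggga
Gbp7: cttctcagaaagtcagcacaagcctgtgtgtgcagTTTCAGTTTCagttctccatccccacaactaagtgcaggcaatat
Phf11b: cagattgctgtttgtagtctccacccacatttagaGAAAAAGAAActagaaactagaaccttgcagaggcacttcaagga
The stretches of Ifit3 and Ifit3b were identical in 80 of 80 bases. Among the genes that rose, 3 of the 7 with a window held the ISRE core, and among the tested genes that were not called 19 of 30 did.

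Expression is given as CPM, the reads of a gene scaled to the size of each library. Total counts per sample were between 3664742 and 8455237, with a median of 5867848. The sorted cells carried the microglial markers Cx3cr1, P2ry12 and Tmem119 at high level in all samples: 12 such markers summed to 27897 to 40585 CPM in PS2APP and 35129 to 47508 CPM in non-Tg samples. Some libraries stood apart. PS2APP samples 1 and 4 and non-Tg samples 9 and 13 were high in immediate early genes, and PS2APP sample 14 and non-Tg samples 12 and 13 were low in Xist. Non-Tg sample 11 had 8 of the 49 interferon-stimulated genes at 0 reads. Results that rest on these libraries are given with and without them.

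Part of the list rose in PS2APP microglia. Of the 49 genes 47 had enough reads to test, and 9 of the 47 were called higher: Oasl2, Slfn5, Oas3, Trim30a, Ifit2, Ifi44, Lgals3bp, Ifi204 and Ifi27l2a. None was called lower. A gene was called where the adjusted p of edgeR's quasi-likelihood test, with age in the model and Benjamini-Hochberg adjustment over all 13994 genes tested, was under 0.05. By that rule 19.1% of the 47 were called higher, against 0.958% of all genes, and 0% of the 47 were called lower, against 0.222% of all genes. The log2 fold change was positive in 44 of the 47, where 47.3% of all genes were positive, and its median was 0.95 over the 47 and -0.02 over all genes. At an unadjusted p under 0.05, 31 of the 47 were higher and 0 lower, where 5.73% of all genes were higher and 5.95% lower. In 4 tested genes, Oasl2, Slfn5, Trim30a and Rtp4, every PS2APP sample lay above every non-Tg sample, which held for 0.572% of all genes. The list was chosen with earlier results of these data known, so these comparisons with all genes are no independent test.

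Neuronal RNA differed between the groups as well. The summed level of 10 neuronal markers was 61.8 to 224 CPM in PS2APP (median 138) and 233 to 446 CPM in non-Tg samples (median 255), with no overlap, and in RNA from sorted cells taken in bulk fewer cells of a type and less RNA per cell cannot be told apart. With the mean log2 CPM of the 8 tested markers of each sample as a further term, a fit added after seeing the data, 0 of the 47 genes were called (0.136% of all genes higher). The 9 called genes then all kept a positive log2 fold change, of 0.41 to 2.48, with a lowest adjusted p of 0.640. At an unadjusted p under 0.05 there were 9 of the 47, against 3.35% of all genes, and the median standard error over all genes was 0.47 with the term and 0.29 without it. That mean was 1.62 to 3.30 in PS2APP and 3.31 to 4.10 in non-Tg samples, so that genotype and this score cannot be told apart here. With the 4 libraries high in immediate early genes left out, 5 of the 47 were called (Oasl2, Slfn5, Oas3, Trim30a and Ifit2; 0.789% of all genes higher). Without the 3 libraries low in Xist 6 were called, those 5 and Ifi44 (0.501% of all genes higher). The count was larger with DESeq2, which called 20 of the 47 (1.87% of all genes higher), and with no count filter, where edgeR called 24 of 49 (1.35%). Without non-Tg sample 11 it called 11 of 49 (1.06%). Both of these counts include Oas1g, which was not tested in the fit of all samples. It can pass a count filter only through PS2APP samples.

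**Figure D1:**
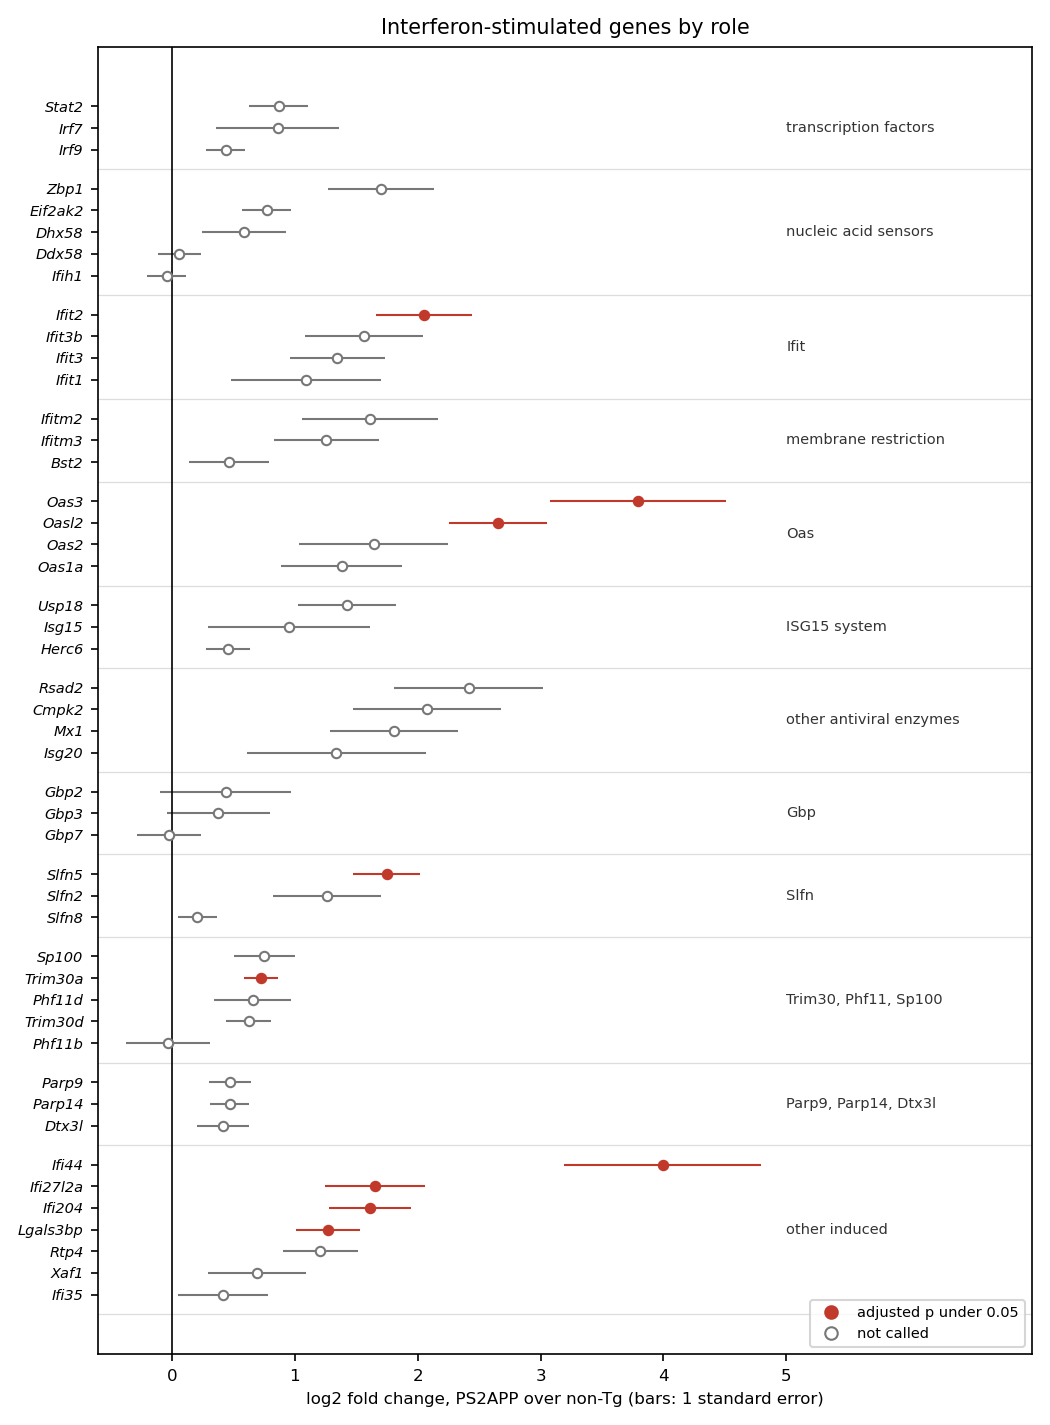
Log2 fold change of each of the 47 tested interferon-stimulated genes in PS2APP over non-Tg microglia (horizontal axis, bars 1 standard error), in rows grouped by role. Filled red points passed an adjusted p of 0.05, open points did not, and 44 of the 47 lie to the right of 0.

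The oligoadenylate synthetase (Oas) family had the highest median log2 fold change of the 12 roles in the list, 2.15 over 4 tested genes. Its synthetases detect double-stranded RNA and make a short messenger that activates the RNA-degrading enzyme RNase L. Oasl2 had 27.9 CPM in the lowest, 57.1 in the median and 98.5 in the highest PS2APP sample, against 3.43, 7.47 and 26.8 CPM in non-Tg samples. No PS2APP sample fell into the non-Tg range, whose top was sample 2 alone, since the next non-Tg sample had 9.54 CPM. The difference was 6.28-fold (log2 2.65 ± 0.40 SE; edgeR adjusted p = 0.000507), and it was called in all 15 fits that each left out a sample. Oas3, the largest synthetase of the family, had 0.996, 25.8 and 43.8 CPM in PS2APP (lowest, median, highest), against 0.15, 1.72 and 3.04 CPM in non-Tg samples. PS2APP sample 14 lay within the non-Tg range and the other 8 above it. The log2 fold change of Oas3 was 3.79 ± 0.72 (13.9-fold; edgeR adjusted p = 0.00645), called in all 15 such fits but not by limma-voom (adjusted p = 0.239).

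The remaining Oas genes had fewer reads. Oas2 stood at 1.64 ± 0.61 on the log2 scale (edgeR adjusted p = 0.245) and Oas1a at 1.38 ± 0.49 (0.222). Oas1g and Oasl1 did not pass the count filter in the fit of all samples and so were not tested there. Oas1g was tested and called with no count filter, with a filter of 10 counts in 6 samples, and without non-Tg sample 2, 5, 9, 11 or 12. It was tested but not called at 14 months alone, without the 3 libraries low in Xist, and without non-Tg sample 13. Oas1g had 4 to 29 reads per PS2APP sample and 0 to 3 per non-Tg sample. It could pass a count filter only through the group where it was high, so these calls add no support. Oas1g had 133 reads over the 9 PS2APP samples and 7 over the 6 non-Tg samples. With library sizes scaled as for CPM, the ratio was 14.4, with a 95% counting interval of 6.78 to 36.4. Its PS2APP samples, at 0.907 to 5.42 CPM, all lay above the non-Tg samples, at 0 to 0.491 CPM. Oasl1 was tested with no count filter, at 14 months alone and without the 3 libraries low in Xist, but not called. Nor was it called without non-Tg sample 2, 5, 9, 11 or 12, where it was tested too. Oasl1 had 118 and 22 reads, a ratio of 4.05 with the same scaling (interval 2.56 to 6.72), and its groups overlapped. Of its 22 non-Tg reads 17 were in sample 13. Both intervals hold counting error alone, not sample to sample spread. Of the 50-base stretches in the Oas1a transcript 57.6% also occur in Oas1g, so counts of uniquely aligned reads are uncertain for this pair; Oasl2 shares none with another gene and Oas3 0.792%.

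The Ifit genes, whose proteins bind viral RNA and hold back its translation, lie side by side on chromosome 19 between 34550550 and 34650009. Ifit2 was the member called. It had 17.9, 38.3 and 82.0 CPM in PS2APP (lowest, median, highest), against 2.01, 6.81 and 18.2 CPM in non-Tg samples. Of the 9 PS2APP samples 8 lay above all non-Tg samples, and the lowest, sample 14, lay just under non-Tg samples 2 and 13. The log2 fold change of Ifit2 was 2.05 ± 0.39 (4.15-fold; edgeR adjusted p = 0.00655), called in 15 of 15 fits without a sample. Ifit3 had 14.5, 25.8 and 71.7 CPM in PS2APP, against 5.94, 11.1 and 25.5 CPM in non-Tg samples, with 5 PS2APP samples above the non-Tg range. Its log2 fold change of 1.34 ± 0.39 was not called (adjusted p = 0.111), nor were those of Ifit3b (1.56 ± 0.48; 0.144) and Ifit1 (1.09 ± 0.61; 0.510). Ifit3 and Ifit3b, whose promoter stretches are printed above, also share 51.2% of the 50-base stretches of the Ifit3 transcript, so their counts are uncertain one by one.

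Among the Schlafen genes Slfn5 rose and its neighbours Slfn2 and Slfn8 were not called. Slfn5 had 23.2, 44.9 and 100.2 CPM in PS2APP (lowest, median, highest), against 12.3, 12.8 and 19.3 CPM in non-Tg samples. The groups did not overlap, and PS2APP sample 1 stood far above the rest. The log2 fold change of Slfn5 was 1.75 ± 0.27 (3.36-fold; edgeR adjusted p = 0.000747), called in all 15 fits without a sample. Slfn5 shares 7.88% of its 50-base stretches with the antisense gene Slfn5os. Strand use in the counting is not given in the sources, so reads of such pairs may be mixed. Slfn2 stood at 1.26 ± 0.44 (adjusted p = 0.205) and Slfn8 at 0.21 ± 0.16 (0.670). All 3 lie on chromosome 11 between 82951349 and 83070678.

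Trim30a had the smallest fold change of the called genes and the tightest spread. It encodes a tripartite motif protein known in mice as a brake on Toll-like receptor signalling. Its levels were 175.3, 215.3 and 260.6 CPM in PS2APP (lowest, median, highest), against 102.2, 137.6 and 157.5 CPM in non-Tg samples. The groups did not overlap. Its log2 fold change was 0.73 ± 0.14 (1.66-fold; edgeR adjusted p = 0.00650), called in all 15 fits without a sample. Trim30d, next to it on chromosome 7, had 79.8, 102.8 and 158.2 CPM in PS2APP, against 42.7, 69.4 and 89.4 CPM in non-Tg samples, with 8 of 9 PS2APP samples above the non-Tg range. It was not called (0.62 ± 0.18; adjusted p = 0.115). Sp100, a component of nuclear bodies, stood at 0.75 ± 0.25 (0.177), Phf11d at 0.66 ± 0.31 (0.418) and Phf11b at -0.03 ± 0.34 (0.987), though 47.05% of the 50-base stretches of Phf11b also occur in other genes.

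Of 7 further induced genes 4 were called higher, against 0.958% of all genes, in a list chosen with earlier results known. These 4 calls depended on the libraries that stood apart. Dropping the 4 with high immediate early expression lost all 4 calls. Dropping the 3 low-Xist ones lost Ifi204, Ifi27l2a and Lgals3bp and kept Ifi44. Ifi44 had 1.25, 8.01 and 45.6 CPM in PS2APP (lowest, median, highest), against 0, 0.21 and 2.62 CPM in non-Tg samples. All but 1 PS2APP sample lay above the non-Tg range, and 2 non-Tg samples had no read. Its log2 fold change of 3.99 ± 0.80 (edgeR adjusted p = 0.0110) rests on few non-Tg reads and was not called without PS2APP sample 15 (3.43; adjusted p = 0.0541) or by limma-voom (0.0739). Lgals3bp encodes a secreted glycoprotein that binds galectins. It had 454.5, 633.9 and 1350 CPM in PS2APP, against 165.7, 306.9 and 459.7 CPM in non-Tg samples, and only PS2APP sample 14 reached down into the non-Tg range. Its log2 fold change was 1.27 ± 0.26 (2.41-fold; edgeR adjusted p = 0.0127), called in 15 of 15 fits without a sample.

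Ifi204 belongs to a family of DNA-binding proteins that take part in sensing DNA. It had 25.7, 38.6 and 55.5 CPM in PS2APP (lowest, median, highest), against 4.71, 10.7 and 30.7 CPM in non-Tg samples, with 8 PS2APP samples above the non-Tg range. The log2 fold change was 1.61 ± 0.33 (3.06-fold; edgeR adjusted p = 0.0139), not called without non-Tg sample 13 (1.46; 0.0589). Ifi204 shares 23.2% of its 50-base stretches with Ifi211, which makes its count uncertain. Ifi27l2a had 12.95, 23.7 and 57.4 CPM in PS2APP, against 3.96, 8.64 and 16.4 CPM in non-Tg samples, and the groups overlapped in 2 PS2APP samples. Its log2 fold change of 1.65 ± 0.41 (edgeR adjusted p = 0.0485) was called in 5 of 15 such fits. It was lost on leaving out PS2APP sample 1, 3, 6, 8 or 10 or non-Tg sample 5, 9, 11, 12 or 13 (adjusted p up to 0.141). Rtp4, a chaperone of receptor transport, had 30.0, 37.7 and 64.7 CPM in PS2APP, against 6.22, 16.8 and 28.0 CPM in non-Tg samples. Its groups did not overlap, but the log2 fold change of 1.21 ± 0.31 missed the threshold (0.0576). Xaf1 (0.69 ± 0.40) and Ifi35 (0.41 ± 0.36) were not called.

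**Figure D2:**
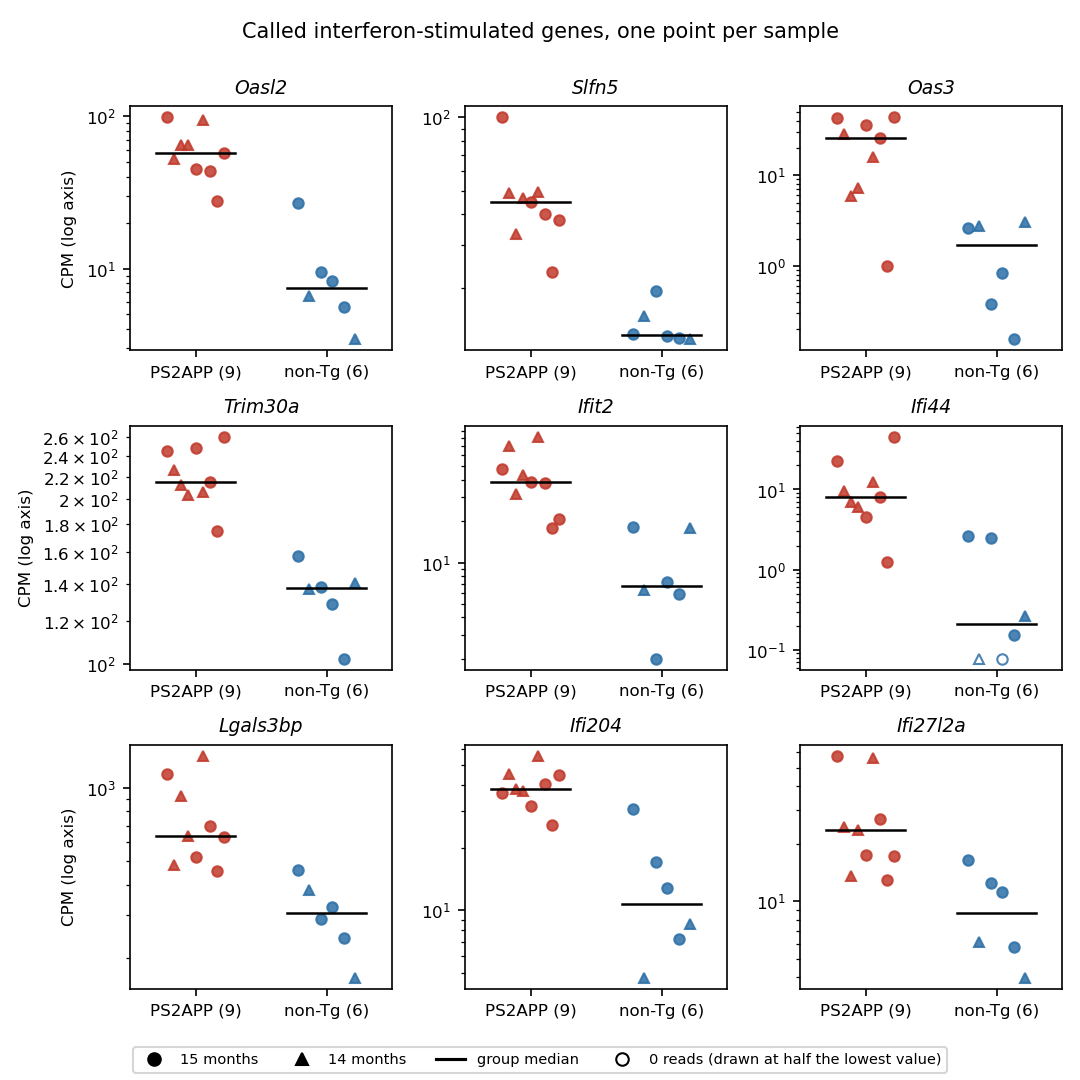
CPM of the 9 called genes in each sample (log axis), PS2APP on the left and non-Tg on the right, circles for 15 months, triangles for 14 months and a line at each group's median. Oasl2, Slfn5 and Trim30a show no overlap between the groups, and in all 9 genes the lowest PS2APP point is sample 14.

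The antiviral enzymes Rsad2, Cmpk2, Mx1 and Isg20 had large but variable differences, and none was called. Rsad2 encodes viperin, which makes a chain-terminating nucleotide, and Cmpk2, a nucleotide kinase that supplies it, lies 12664 bases away on chromosome 12. Rsad2 had 2.99, 15.4 and 30.6 CPM in PS2APP (lowest, median, highest), against 0, 1.81 and 9.90 CPM in non-Tg samples, with 7 PS2APP samples above the non-Tg range. Its log2 fold change was 2.42 ± 0.61 (edgeR adjusted p = 0.0535), and it was called in 4 of 15 fits without a sample. Cmpk2 had 2.05, 5.96 and 9.998 CPM in PS2APP, against 0, 1.79 and 2.77 CPM in non-Tg samples, and 8 PS2APP samples lay above the non-Tg range (2.08 ± 0.60; 0.119). Mx1, a GTPase that blocks virus replication in the nucleus, had 9.15, 17.4 and 31.7 CPM in PS2APP, against 0, 4.17 and 16.4 CPM in non-Tg samples (1.81 ± 0.52; 0.115). Its 5 highest PS2APP samples lay above the non-Tg range. Isg20, an RNA exonuclease, stood at 1.34 ± 0.73 (0.491).

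Of 5 sensors of nucleic acid 0 were called (0.958% of all genes higher), with Zbp1 and Eif2ak2 closest to the threshold. Zbp1, which binds nucleic acid in the Z form, had 3.86, 9.15 and 28.5 CPM in PS2APP (lowest, median, highest), against 1.66, 3.86 and 6.78 CPM in non-Tg samples. All but 1 of the PS2APP samples lay above the non-Tg range (1.70 ± 0.43; edgeR adjusted p = 0.0569). Eif2ak2, the RNA-activated kinase PKR that shuts down translation, had 67.6, 95.7 and 140.0 CPM in PS2APP, against 38.5, 55.3 and 79.8 CPM in non-Tg samples, with 6 PS2APP samples above the non-Tg range (0.77 ± 0.20; 0.0592). The RNA helicases Ddx58 (RIG-I) and Ifih1 (MDA5) stood at 0.06 ± 0.18 and -0.04 ± 0.16, and Dhx58 at 0.59 ± 0.34 (0.531). Ifih1 had 51.5 to 93.8 CPM in PS2APP and 47.6 to 96.4 CPM in non-Tg samples, so the ranges nearly coincided.

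The transcription factors that carry the signal were not called. Stat2 had 32.9, 65.8 and 88.2 CPM in PS2APP (lowest, median, highest), against 16.8, 41.2 and 45.8 CPM in non-Tg samples, with 7 PS2APP samples above the non-Tg range (0.87 ± 0.24; edgeR adjusted p = 0.0929). Irf9 stood at 0.44 ± 0.16 (0.237) and Irf7 at 0.86 ± 0.50 (0.531). In the ISG15 system, Usp18, which removes the ubiquitin-like ISG15 from proteins and dampens receptor signalling, had 3.74, 19.8 and 27.4 CPM in PS2APP, against 3.94, 6.70 and 10.1 CPM in non-Tg samples. PS2APP sample 14 was the lowest of all 15 samples for Usp18 and 7 PS2APP samples lay above the non-Tg range (1.43 ± 0.40; 0.0935). Isg15 itself had few reads (0.95 ± 0.66; 0.622), and Herc6, the ligase that attaches it in mice, stood at 0.46 ± 0.18 (0.298).

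Membrane restriction factors were not called. Ifitm3 and Ifitm2, which block fusion of viral and cell membranes, stood at 1.26 ± 0.43 (edgeR adjusted p = 0.199) and 1.61 ± 0.56 (0.204), and Bst2, which tethers budding virus particles, at 0.47 ± 0.32 (0.623). Of the 50-base stretches of Ifitm2 48.5% also occur in other genes. The neighbours Parp9, Dtx3l and Parp14 on chromosome 16, whose products act in ADP-ribosylation and ubiquitination, stood close together at 0.47, 0.42 and 0.47. Parp9 and Dtx3l overlap on the genome, so their counts are uncertain one by one.

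The Gbp genes, best known as targets of type II interferon, had the lowest median log2 fold change of the 12 roles, 0.38. Gbp2 stood at 0.44 ± 0.53, Gbp3 at 0.38 ± 0.42 and Gbp7 at -0.02 ± 0.26 (edgeR adjusted p between 0.798 and 0.988). Gbp2 reached 66.0 CPM in PS2APP sample 3, while the median was 9.79 CPM in PS2APP and 5.73 CPM in non-Tg samples. The Gbp7 promoter holds the ISRE core shown above, and windows of Gbp2 and Gbp3 hold it too. At an unadjusted p under 0.05, 0 of the 3 Gbp genes and 4 of the 4 tested Oas genes were higher. Of all genes 5.73% were, so 0 of 3 cannot be told apart from that share. The difference between the Gbp and Oas genes was not tested.

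Levels between genes can be compared only per gene length, for which the deposited nRPKM (the authors' length-scaled values, with their own size factor per sample) was used. On this scale Lgals3bp was far above the rest, with a median of 77.3 in PS2APP and 37.4 in non-Tg samples. Ifitm3 followed with 17.4 and 6.90, Bst2 with 15.5 and 8.65, Trim30a with 14.1 and 9.11, and Slfn8 with 10.1 and 8.27. The genes with the largest fold changes were low on it, Oas3 with a median nRPKM of 1.45 in PS2APP and 0.0971 in non-Tg samples and Ifi44 with 0.728 and 0.0193.

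**Figure D3:**
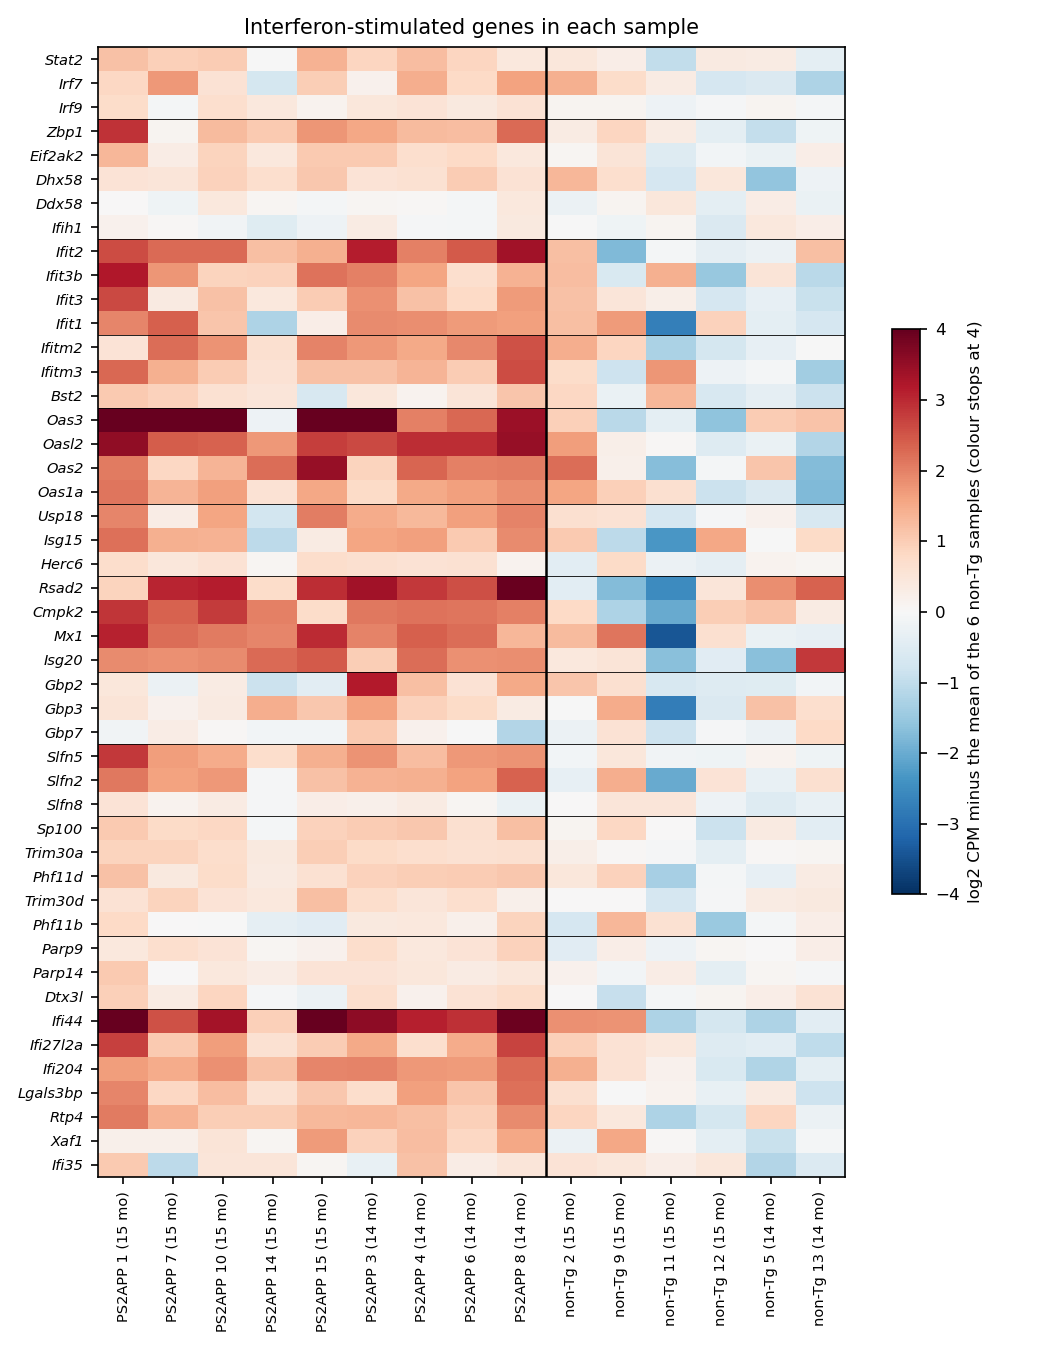
Log2 CPM of the 47 tested genes in each sample, as the difference from the mean of the 6 non-Tg samples (red higher, blue lower; colour stops at 4). PS2APP samples are left of the black line and non-Tg samples right of it, each with 15 months before 14 months, and PS2APP sample 14 is the palest PS2APP column.

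The samples of each group differed among themselves across the list. The mean log2 CPM of the 47 genes was 4.12 to 5.28 in PS2APP (median 4.90) and 3.17 to 4.25 in non-Tg samples (median 3.58). The only overlap was that of PS2APP sample 14, at 4.12, with non-Tg sample 2, at 4.25. The summed CPM of the 49 genes was 1994 to 3890 in PS2APP and 1330 to 1938 in non-Tg samples, with no overlap. PS2APP sample 14, which had the smallest library of its group, was the lowest PS2APP sample for 25 of the 47 genes and for all 9 that were called. Without it 12 genes were called, with Rsad2, Stat2 and Usp18 added (0.93% of all genes higher). The highest PS2APP value fell in sample 1 for 17 genes, sample 8 for 12 and sample 15 for 11. In the non-Tg group sample 2 was highest for 18 genes and for 7 of the 9 called, and sample 11 was lowest for 17.

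Relative spread was smaller in PS2APP, over all genes tested as well as in the list. The median coefficient of variation of the 47 genes was 38.0% in PS2APP and 57.8% in non-Tg samples, against 32.4% and 42.2% over all genes tested. It was lower in PS2APP for 37 of the 47 genes and for 9873 of the 13994 genes tested. Several genes of the list had few reads in non-Tg samples, and the part of counting error in this spread was not tested. The tightest gene was Trim30a in PS2APP (11.9%) and Irf9 in non-Tg samples (8.85%), and the loosest were Gbp2 (118%) and Isg20 (168%).

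**Figure D4:**
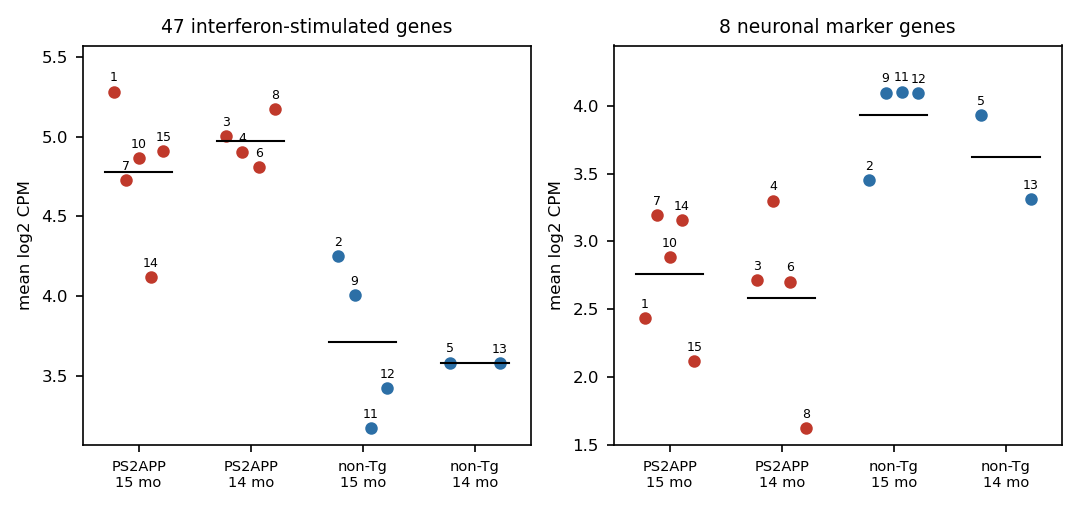
Mean log2 CPM of the 47 tested interferon-stimulated genes (left) and of the 8 tested neuronal markers (right) in each sample, by genotype and age, with sample numbers and a line at each mean. PS2APP samples lie at 4.12 to 5.28 on the left against 3.17 to 4.25 for non-Tg samples, and at 1.62 to 3.30 on the right against 3.31 to 4.10.

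Between the ages no gene of the list passed the test in edgeR's filtered fit. At 15 against 14 months 0 of the 47 genes were called (0% of all genes), and 3 passed an unadjusted p under 0.05, where 7.95% of all genes did. DESeq2 also called 0 of the 47 (0.0715% of all genes), and edgeR without a count filter called 1, Rsad2 (0.397%). The 5 with the smallest p were Rsad2 (log2 fold change of 15 over 14 months -1.61 ± 0.55), Gbp2 (-1.24 ± 0.53), Ifih1 (-0.35 ± 0.16), Slfn8 (0.33 ± 0.16) and Ifit2 (-0.72 ± 0.36), with a lowest edgeR adjusted p of 0.551. Rsad2 averaged 11.1 CPM at 15 months and 19.2 CPM at 14 months in PS2APP, and 0.969 and 8.41 CPM in non-Tg samples. In simulated data the age test found 42% of 2-fold and 72% of 4-fold changes.

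The genotype difference was examined at each age. At 15 months alone 1 gene was called, Oas3 (0.402% of all genes higher), and the median log2 fold change was 0.79. Oasl2 and Slfn5 stood there at 2.11 and 1.77 (edgeR adjusted p = 0.0579 each). At 14 months alone, with 2 non-Tg samples, 5 were called, Oasl2, Ifi44, Ifi204, Slfn5 and Ifit1 (0.311% of all genes higher), and the median was 1.46. The test of the difference between the ages called 0 of the 47 (0% of all genes), with 8 at an unadjusted p under 0.05, where 7.42% of all genes passed, and a lowest edgeR adjusted p of 0.629. DESeq2 (0.0429% of all genes) and edgeR without a count filter (0.362%) also called 0. Its estimate, the genotype difference at 15 months minus that at 14 months, was negative in 32 of the 47 genes (51.4% of all genes), with a median of -0.43. The 5 genes with the smallest p were Gbp2 (-2.73 ± 0.88), Ifi204 (-1.63 ± 0.57), Oasl2 (-1.71 ± 0.70), Oas1a (-2.16 ± 0.92) and Rsad2 (2.29 ± 1.05). Oasl2 averaged 54.5 CPM in PS2APP and 12.6 CPM in non-Tg samples at 15 months, and 69.3 and 5.04 CPM at 14 months. This test had little power, since it found 0% of 2-fold and 23% of 4-fold changes in simulated data, and a difference between the ages is neither shown nor absent.

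Other genes of the pathway were read from the same fit. The ligands were hardly detected. Of 12 interferon genes, of types I, II and III, none had enough reads to test. Ifnk had 18 reads over all PS2APP and 5 over all non-Tg samples, Ifnb1 4 and 1, and Ifna12 1 and 0. The other 9 had 0 uniquely aligned reads in every sample, so they were not detected at this depth. Stretches that the ligands share with other genes were not examined. Neither receptor gene was called: Ifnar1 stood at a log2 fold change of -0.01 ± 0.14 and Ifnar2 at 0.05 ± 0.15. The kinases Jak1 (-0.34 ± 0.13; edgeR adjusted p = 0.240) and Tyk2 (0.41 ± 0.19; 0.413) and the transcription factor Stat3 (0.27 ± 0.15; 0.502) were not called. In all, 0 of 10 tested receptor and signalling genes were called, where 0.958% of all genes were called higher and 0.222% lower. So few genes cannot be told apart from that share. At an unadjusted p under 0.05, 2 of the 10 were higher and 1 lower, against 5.73% and 5.95% of all genes.

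Of 20 genes that lead to interferon production 0 were called, with a median log2 fold change of 0.00. The share called over all genes was 0.958% higher and 0.222% lower, from which this list and the next cannot be told apart. The kinase Ikbke stood at 1.73 ± 0.61 (edgeR adjusted p = 0.210), the DNA-signalling adaptor Tmem173 (STING) at -0.39 ± 0.16 (0.327), Rnaseh2a at -1.19 ± 0.60 (0.453), Adar at 0.41 ± 0.21 (0.462) and the transcription factor Irf3 at -0.10. Of 8 tested negative regulators 0 were called, with Socs3 at -1.48 ± 0.66 (0.381), Ptpn2 at 0.38 ± 0.18 (0.420), Pias1 at -0.20 ± 0.15 (0.675) and Irf2 at -0.17 ± 0.14 (0.698).

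Among 51 tested interferon-induced genes outside the list of 49, 4 were called higher and 0 lower, or 7.84% and 0%, against 0.958% and 0.222% of all genes tested. Their median log2 fold change was 0.38, against -0.02 over all genes. This list too was chosen with earlier results known, so these comparisons are no independent test. Samd9l, an antiviral restriction factor, had 29.9, 40.2 and 53.0 CPM in PS2APP (lowest, median, highest), against 4.16, 10.4 and 14.3 CPM in non-Tg samples. Its groups did not overlap, and the log2 fold change was 2.07 ± 0.28 (4.21-fold; edgeR adjusted p = 0.000120), with all 15 fits without a sample calling it. Ifi207, of the same family as Ifi204, had 14.9, 33.0 and 46.2 CPM in PS2APP, against 3.41, 9.92 and 16.3 CPM in non-Tg samples (1.70 ± 0.31; 0.00396), and was called in 15 of 15. Cxcl10, a chemokine that draws T cells, had 8.22, 20.9 and 43.2 CPM in PS2APP, against 0.622, 5.81 and 14.3 CPM in non-Tg samples. Its call (1.63 ± 0.36; 0.0220) was lost without PS2APP sample 8, 10 or 15 or non-Tg sample 5 (up to 0.0655). Trim25, the ubiquitin ligase that activates RIG-I, had 66.7, 77.6 and 84.7 CPM in PS2APP, against 38.3, 49.4 and 58.4 CPM in non-Tg samples, with no overlap. It was called (0.64 ± 0.15; 0.0299) in 8 of 15 such fits, the call being lost without PS2APP samples 3, 10 or 15 or non-Tg samples 2, 5, 12 or 13 (up to 0.0920).

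**Figure D5:**
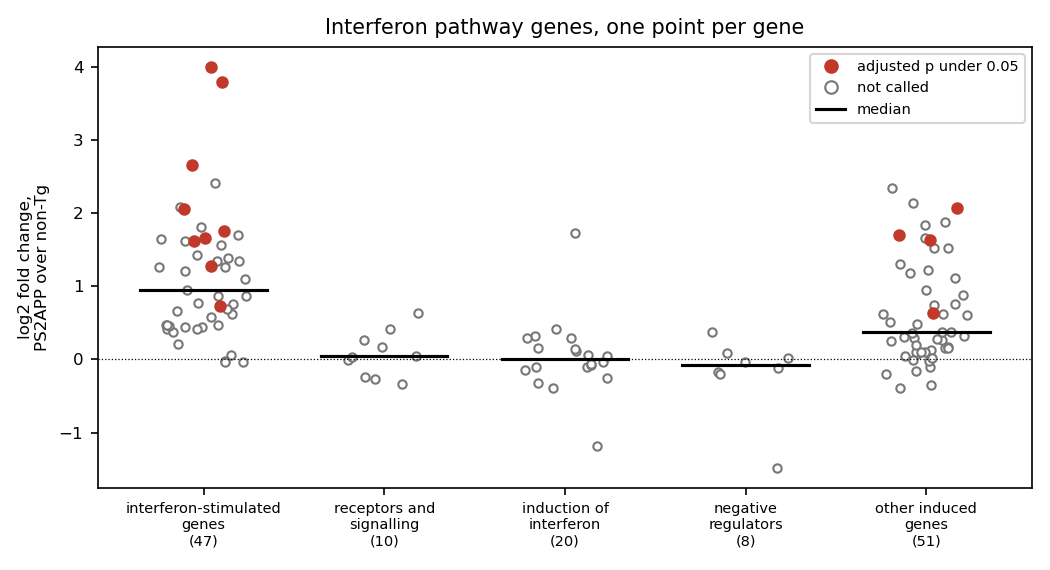
Log2 fold change in PS2APP over non-Tg microglia of each tested gene (vertical axis) for the 47 interferon-stimulated genes and 4 other lists of the pathway, with the number of genes under each list, filled points for called genes and a line at each median. The median is 0.95 for the 47 genes, 0.04 for receptors and signalling, 0.00 for the induction of interferon, -0.08 for negative regulators and 0.38 for other induced genes.

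Markers of microglia and of other cell types were summed in each sample. Of 12 microglial markers, P2ry13 alone was called, lower by edgeR (-0.55; adjusted p = 0.0304). The summed level of 6 neutrophil markers was 0 to 8.72 CPM in PS2APP and 0 to 77.6 CPM in non-Tg samples, and that of 8 T and NK cell markers 0 to 1.87 and 0 to 6.87 CPM, with Ncr1 at 0 in every sample. Of 6 plasmacytoid dendritic cell markers, which summed to 320 to 534 CPM in PS2APP and 325 to 604 CPM in non-Tg samples, Tcf4 held nearly all and Klk1 and Ly6d were at or near 0, while Cox6a2 was called higher (2.47; edgeR adjusted p = 0.0276). Monocyte markers summed to 29.7 to 44.4 CPM in PS2APP and 17.5 to 38.8 CPM in non-Tg samples, and those of border macrophages to 61.3 to 242 CPM and 36.7 to 222 CPM, with 0 of either called. Of 7 astrocyte markers, which summed to 318 to 617 CPM in PS2APP and 451 to 1081 CPM in non-Tg samples, Gfap was called higher (2.08) and Slc1a2 lower (-1.01). Of 7 endothelial markers, which summed to 37.6 to 74.7 CPM in PS2APP and 46.3 to 102 CPM in non-Tg samples, Flt1 was called higher (2.27; edgeR adjusted p = 0.0220) and Pecam1 lower (-1.21; 0.0107). The 6 choroid plexus markers summed to 4.46 to 32.3 CPM in PS2APP and 1.11 to 407 CPM in non-Tg samples, with Ttr (-3.40; edgeR adjusted p = 0.0405) and Enpp2 (-2.51; 0.0312) called lower. Of the neuronal markers Gad2 (-2.26; edgeR adjusted p = 0.0315) and Slc17a7 (-1.94; 0.0388) were called lower. Oligodendrocyte markers summed to 121 to 265 CPM in PS2APP and 187 to 772 CPM in non-Tg samples, and B cell markers to at most 17.0 CPM in PS2APP and 23.5 CPM in non-Tg samples, with 0 of either called. The part of these cells in the results was not tested. The neuronal term given above cannot test it, since its score and genotype cannot be told apart.

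The 49 genes lie on 15 chromosomes, and 28 of them fall into 10 clusters in which neighbours are at most 500000 bases apart (GRCm38). Fold changes differed within clusters. On chromosome 5 between 120730333 and 120907544 Oas3 stood at a log2 fold change of 3.79 beside 1.64 for Oas2 and 1.38 for Oas1a. On chromosome 11 Slfn5 at 1.75 lay beside Slfn8 at 0.21. On chromosome 14 between 59320964 and 59365490 Phf11d at 0.66 lay beside Phf11b at -0.03. The 4 Ifit genes, at 1.09 to 2.05, and the 3 genes around Parp9, at 0.42 to 0.47, stood closer together.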

How the data were processed

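Total RNA was extracted from GFP-positive cells with a column kit, per the labels' protocols. Per the submitters' processing notes the authors' aligner was GSNAP and the build GRCm38. The sources used here give neither its version nor the library kit or strandedness. Per the file headers, each sample's table gives a raw count of uniquely aligned reads per gene model, and nRPKM, the RPKM adjusted by a size factor. RefSeq symbols (GRCm38.p6) matched 31049 of 36528 gene identifiers, holding 97.2% to 98.2% of the reads.

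Counts went into edgeR 4.0.16 (R 4.3.3) with TMM scaling and the filter filterByExpr on genotype. Age and genotype were the terms of its quasi-likelihood fit to all 15 samples. Standard errors are the log2 fold change over the root of F, and log2 CPM uses a prior count of 2. The age coefficient and, in a further fit, the product of genotype and age were tested likewise. In simulated counts with 200 changed genes the genotype test found 37% of 2-fold and 73% of 4-fold changes, with 5.17% false calls. Over 51 pairs of samples within groups the chi-square per degree of freedom was 9.98 to 67.5, so no pair was alike within counting error. Each sample counted once. Whether samples came from the same mouse or pool cannot be told from these values. Shared 50-base stretches were counted in GENCODE M21 transcripts. Alternatives used DESeq2 1.42.0 and limma 3.58.1.

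The 49 genes, the lists and the rule for named genes were chosen with earlier results of these data known. The rule gives values by sample for called genes and the 10 uncalled genes with the smallest p, and from each pathway list up to 4 genes with the smallest p, besides Ifnar1, Ifnar2, Irf3 and Cxcl10. Not every gene under the rule is reported here.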

Additional observations from a re-analysis of the deposited data

Results flagged for a closer look

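For 19 of the 49 genes, those called and the 10 next by p, each genotype group was examined for a sample far from the others, in 38 groups in all. The gap of a sample to its nearest neighbour, set against the group's range, passed Dixon's limit in 4 of them, and chance alone flags about 1 in 20 groups. Slfn5 had 100.2 CPM in PS2APP sample 1, where the next PS2APP sample had 49.3 CPM, and Ifit3 had 71.7 CPM in the same sample, with 41.0 CPM next. Ifi44 had 45.6 CPM in PS2APP sample 15, with 22.8 CPM next. Oasl2 had 26.8 CPM in non-Tg sample 2, with 9.54 CPM next. PS2APP sample 1 is among the libraries high in immediate early genes, and without it the log2 fold change of Slfn5 was 1.47 (edgeR adjusted p = 0.000795), against 1.75 with all samples. Without non-Tg sample 2 that of Oasl2 was 3.17, against 2.65.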

How the results depend on the processing

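The 9 called genes (0.958% of all genes higher) became 24 with no count filter (1.35%) and 20 with DESeq2 (1.87%). They became 5 at 14 months alone (0.311%) and 1 at 15 months alone (0.402%). Without the 4 libraries with high immediate early genes 5 were called (0.789%), and 0 with the neuronal score (0.136%). In these same fits the 4 called genes of the other pathway lists became 9, 11, 2, 1, 2 and 0. The median log2 fold change of 0.95 became 1.46 at 14 months alone, 0.56 with the neuronal score and 0.53 with limma-trend on log2(nRPKM + 1), a scale that understates changes of low genes. For age, no count filter gave 1 call in place of 0. The causes were not tested. Leaving out each sample in turn gave 8 to 13 called genes, where 0.722% to 1.06% of all genes were called higher. These counts include Oas1g, tested and called without non-Tg sample 2, 5, 9, 11 or 12. It passed the filter there only through PS2APP samples, where it was high. Of the pathway genes 2 to 7 were called. There were 2 without non-Tg sample 5, PS2APP sample 10 or PS2APP sample 15, and 7 without non-Tg sample 11. The median log2 fold change of the list was then 0.87 to 1.199. Other scalings, a filter of 10 counts in 6 samples, limma-voom, a robust fit, no age term and an immediate early score as a term gave 9 to 11 called genes. In these fits 0.951% to 1.06% of all genes were called higher, and the count under that filter includes Oas1g, with the same limit. Values of 23 single genes were followed through the alternatives. Of these values 573 kept direction and side of the threshold, 46 gained a call, 71 lost one and 0 changed sign. Genes of the list outside these 23 did change sign. Ifih1 ran from -0.13 to 0.0068 over the fits without a sample. No paired analysis was made, since the labels give no pairing of samples between the groups. Depth limits the genes with few reads, such as Isg15, Isg20, Oasl1 and the ligands.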
